A study of Mus musculus and Rattus norvegicus with 43 samples.

Results

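The genes described here are 10 transcripts of the choroid plexus measured in mouse striatum: Ttr, Kl, Folr1, Clic6, Otx2, Kcne2, Slc4a5, Aqp1, Enpp2 and Prlr. They were taken by gene symbol from the mouse table of read counts, where they are 10 of 54532 gene rows. All 10 were among the 19413 genes that passed the filter on low counts. RNA was sequenced from the striatum of a single hemisphere of C57BL/6 mice aged 4 months that had been injected on postnatal day 0. Of the libraries, 8 came from mice given a control miRNA, 5 from mice given the C/N-TAF miRNA (here CN) and 8 from mice given the N-TAF miRNA (here N). N-TAF is the neuronal form of TAF1, which is part of the TFIID complex of basal transcription. The study asks how striatal expression differs from the control after each miRNA. No genetic modification is named for any group, and the promoter that drives the miRNA is not given in the sources used here. The description field of every mouse library ends in the same letters, Ct, so groups rest on the injection field alone.

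The choroid plexus is a fringe of vessels covered by a specialised epithelium that hangs into the brain ventricles and secretes cerebrospinal fluid. Its epithelial cells pump ions and water from blood to fluid, carry vitamins and hormones across, and release proteins into the ventricle. The plexus of the lateral ventricle lies next to the striatum, which itself consists mostly of spiny projection neurons. Transcripts of the plexus in a striatal sample are therefore read here as a level per library, in CPM (counts relative to each library's total, after TMM scaling). In such bulk samples, fewer cells of a type and less RNA per cell cannot be told apart.

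Otx2, a member, encodes a homeodomain protein needed to form the choroid plexus and to maintain its gene expression, and proteins of its class bind DNA with the core TAATCC. Upstream sequence is shown as a description only, and a part of Otx2 in how the 10 genes varied between libraries was not tested. RefSeq promoter windows (build GRCm38.p6, 250 bases before each start) matched 6 of the 10 genes, with 12 windows in all. The following windows belong to Otx2 itself (chr14:48665110-48665359, minus strand), to Kcne2, the member with the closest rank pattern to Ttr (chr16:92292139-92292388, plus strand), and to Slc4a5, the member that rose most steeply with Ttr (chr6:83237125-83237374, plus strand). Capitals mark the core TAATC or its reverse complement GATTA. Otx2 and Kcne2 also have windows without the core, and the window printed for each is the one that carries it.
Otx2: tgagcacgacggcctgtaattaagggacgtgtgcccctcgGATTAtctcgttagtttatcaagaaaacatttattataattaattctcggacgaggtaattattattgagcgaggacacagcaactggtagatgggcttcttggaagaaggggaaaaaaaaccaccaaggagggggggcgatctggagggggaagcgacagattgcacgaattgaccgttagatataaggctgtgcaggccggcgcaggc
Kcne2: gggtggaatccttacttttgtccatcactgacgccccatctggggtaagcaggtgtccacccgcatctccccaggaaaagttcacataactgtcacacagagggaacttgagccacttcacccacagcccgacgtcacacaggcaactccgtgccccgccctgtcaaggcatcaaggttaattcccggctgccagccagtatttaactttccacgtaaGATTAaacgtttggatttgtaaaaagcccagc
Slc4a5: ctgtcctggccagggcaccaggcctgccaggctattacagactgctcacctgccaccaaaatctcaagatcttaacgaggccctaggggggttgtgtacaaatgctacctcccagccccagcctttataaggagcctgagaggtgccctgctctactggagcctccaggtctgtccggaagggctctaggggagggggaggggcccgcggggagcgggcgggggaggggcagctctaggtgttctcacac

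The full motif TAATCC or its complement GGATTA was found in 1 of the 12 windows, the Otx2 window shown, where the core starts at position -210 from the gene start. The shorter core, which any copy of the full motif also contains, was found in 2 of 12, with the further copy at position -32 of the Kcne2 window. Searched on both strands, TAATCC occurred in 6.3% of all 32851 windows of the same length and TAATC in 19.8%, with chromosome 18 kept in. A match is a description of the letters in these windows and says nothing of binding.

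Library totals ran from 24.9 to 35.6 M counts (M, mega). The level of the targeted gene Taf1 averaged 98.6 ± 5.53 CPM over control libraries (SD, n = 8). The CN mean was 90.7 ± 22.6 CPM (SD, n = 5) and the N mean 97.5 ± 6.19 CPM (SD, n = 8), with no call against control for CN (adjusted p = 0.703 by edgeR) or N (adjusted p = 0.987). Gene counts do not separate the N-TAF form. CN library 2 stood apart: over 10256 genes, its deviation from the other libraries ran against transcript length (rho -0.714, next N library 4 at -0.498), while CN library 1 was the most positive (0.541). Choroid plexus genes were present in all 21 libraries, and striatal identity was high in all of them, with 12 markers of spiny projection neurons summing to 9449 to 13561 CPM. The 10 choroid plexus genes together made up 0.0222% of reads in N library 8 and 0.528% in N library 6.

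Ttr encodes transthyretin, the carrier of thyroxine and of retinol-binding protein that the choroid plexus secretes into the cerebrospinal fluid. Its level in the 8 control libraries was 4.23 CPM at the lowest, 24.3 at the median and 910.3 at the highest. The 5 CN libraries were at 207, 404, 80.1, 389.7 and 437 CPM for libraries 1 to 5. In N, the lowest library was at 4.75 CPM, the median at 89.6 and the highest at 3431. N libraries 6 and 5 (1542 CPM) lay above every control, all other N libraries lay within the control range, and every CN library did so too. Highest over lowest, Ttr spanned 811-fold, from 4.23 CPM (140 reads) in control library 2 to 3431 CPM (90045 reads) in N library 6. Control library 5 was the third highest of all 21 and control library 8 (495 CPM) the fourth, so high levels occurred without either Taf1 miRNA.

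Enpp2 encodes autotaxin, the secreted enzyme that makes lysophosphatidic acid, and oligodendrocytes express it besides the choroid plexus. It stood at 221, 254 and 623 CPM in control (lowest, median, highest) and at 189, 264 and 1544 CPM in N. The CN libraries were at 449.7, 272, 243, 320.4 and 402 CPM. Its range over the 21 libraries was 8.18-fold, much narrower than that of Ttr. Klotho, the product of Kl, is a membrane co-receptor for FGF23 that is also shed into the cerebrospinal fluid. Kl was at 4.2, 5.26 and 40.3 CPM in control, at 18.8, 5.61, 8.46, 13.9 and 23.3 CPM in the CN libraries, and at 2.97, 8.8 and 101 CPM in N. Its lowest CN value was that of library 2, although Ttr was among the higher CN values there.

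Among receptors, Folr1 encodes the folate receptor that moves folate across the choroid plexus. Folr1 was at 0.363, 0.922 and 7.69 CPM in control and at 0.678, 1.13 and 21.9 CPM in N. The CN libraries were at 2.27, 3.85, 1.11, 3.26 and 4.22 CPM, all above the control median. Prlr encodes the prolactin receptor. It was at 0.665, 1.76 and 13.0 CPM in control, at 5.37, 1.82, 1.42, 2.25 and 4.41 CPM in the CN libraries, and at 0.74, 2.58 and 25.1 CPM in N. Here 4 of 5 CN libraries lay above the control median.

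The ion and water transporters split into genes with a wide and a narrow range. Slc4a5, a sodium bicarbonate cotransporter of the apical membrane, was at 0.0832, 0.469 and 8.39 CPM in control and at 0.283, 1.05 and 20.8 CPM in N. In the CN libraries it was at 2.23, 1.37, 0.618, 2.53 and 4.51 CPM, inside the control range. Its 250-fold span rests on 2 reads in the lowest library and 546 in the highest. Kcne2, a potassium channel beta subunit, spanned 145-fold and was at 0.121, 0.336 and 5.4 CPM in control and at 0.177, 1.08 and 17.5 CPM in N. Its CN values of 1.82, 1.46, 1.02, 2.05 and 3.43 CPM all lay above the control median. Aqp1, the water channel of the apical membrane, was at 0.242, 0.536 and 9.06 CPM in control and at 0.629, 1.03 and 20.7 CPM in N, where 8 of 8 libraries exceeded the control median. Aqp1 in the CN libraries was at 2.35, 1.58, 0.711, 2.05 and 4.25 CPM. Clic6, of the chloride intracellular channel family, had the narrowest span of the 10 genes, 5.14-fold. It was at 16.0, 19.3 and 45 CPM in control, at 26.0, 22.8, 24.6, 24.8 and 32.2 CPM in the CN libraries, and at 17.0, 28.3 and 82.1 CPM in N. Clic6 thus stayed at 16.0 CPM or more in libraries with hardly any Ttr.

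Otx2 was at 0.357, 0.714 and 5.95 CPM in control, at 2.69, 1.22, 1.85, 1.01 and 2.28 CPM in the CN libraries, and at 0.531, 1.83 and 12.2 CPM in N. As for the other members, the groups overlapped, and N libraries 6, 5 and control library 5 were the 3 highest.

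**Figure D1:**
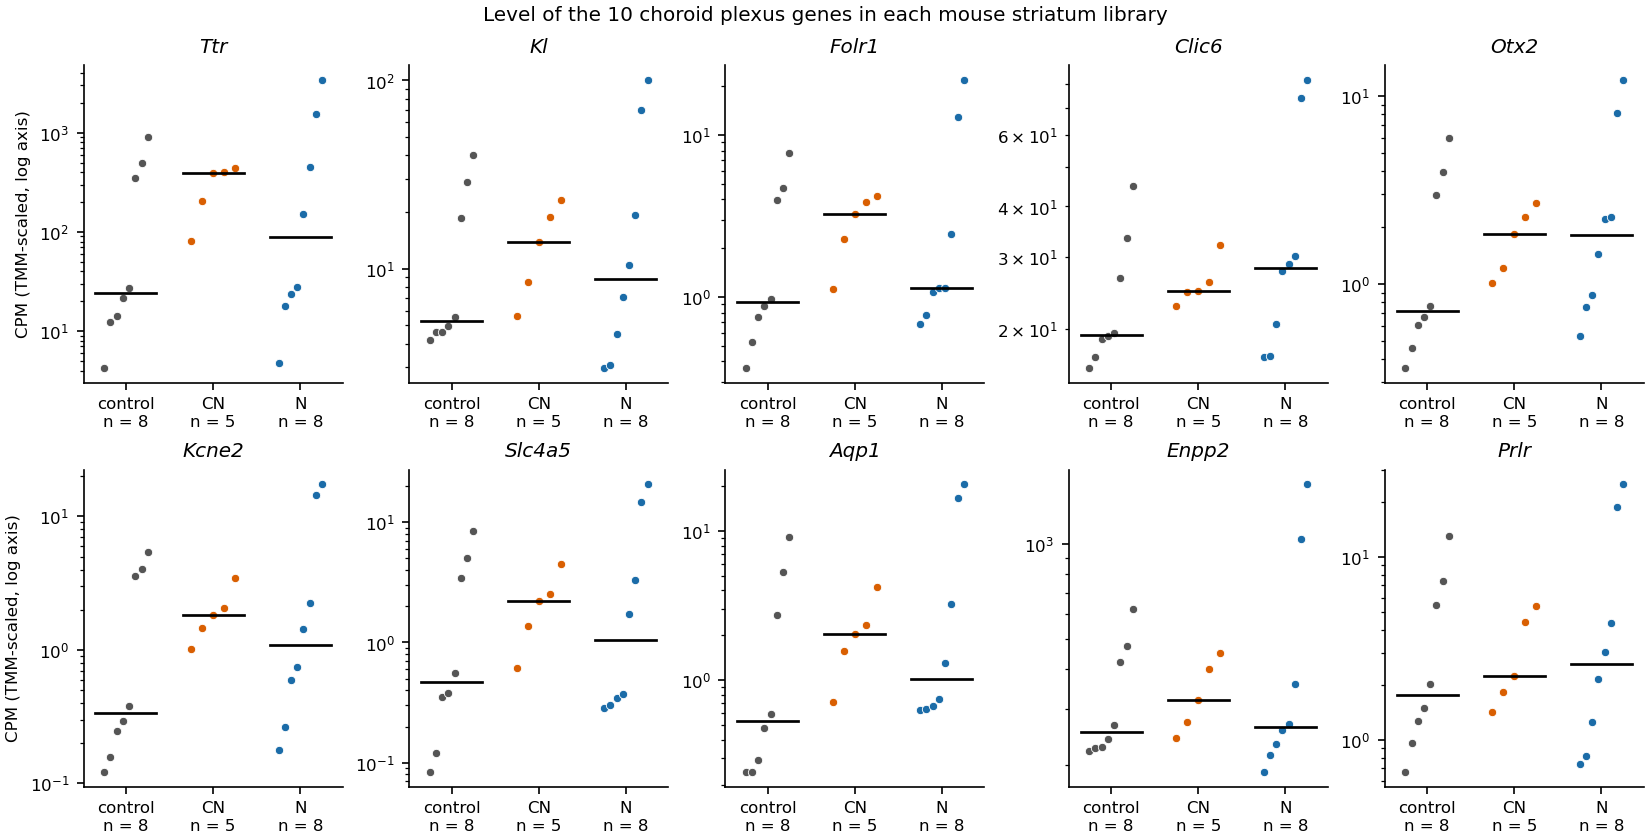
Level of each of the 10 choroid plexus genes in every library, in TMM-scaled CPM on a log axis; each point is a library (8 control, 5 CN, 8 N) and the black line is the group's median. In 10 of 10 panels the highest points are N libraries 6 and 5, the CN points lie inside the control range, and the groups overlap.

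The highest libraries were the same for all 10 genes. N library 6 was the highest, N library 5 the second and control library 5 the third for 10 of 10. For 10 of 10, exactly 2 N libraries and 0 CN libraries lay above every control. CN had the smallest coefficient of variation for 10 of 10 genes (50.7% for Ttr, against 145% in control and 172% in N) and N the largest for 10 of 10. The CN median exceeded the control median for 10 of 10 genes, but the CN mean exceeded the control mean for 5 of 10.

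Per kilobase of exon, the median levels over 21 libraries put Ttr first at 128 CPM per kb, then Enpp2 at 46.7 and Clic6 at 6.35. Kl (0.907), Kcne2 (0.809), Aqp1 (0.495), Folr1 (0.493), Otx2 (0.343), Slc4a5 (0.237) and Prlr (0.14 CPM per kb) followed. Enpp2 exceeded Clic6, and Clic6 exceeded Kl, in 21 of 21 libraries. Kl exceeded Kcne2 in 19 of 21 and Folr1 exceeded Otx2 in 20 of 21. The order varied more for Ttr and Enpp2 (Ttr higher per kb in 12 of 21), Kcne2 and Aqp1 (15 of 21), Aqp1 and Folr1 (4 of 21), Otx2 and Slc4a5 (14 of 21) and Slc4a5 and Prlr (14 of 21). In 9 of the 21 libraries Enpp2 was thus the higher of the pair, although the highest Ttr level was far above the highest Enpp2 level. Short stretches of exon are shared with other annotated genes in Enpp2 (345 bases with Gm26684 on the opposite strand), Otx2 (168 bases with Gm49154 and 154 with Otx2os1, the latter opposite) and Prlr (203 bases with Gm21973). Reads there are uncertain, because the sources used here do not state whether counting used strand.

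For N against control, all 10 genes had fitted log2 fold changes above 0, and 0 of 10 passed the test. The median of the 10 was 1.0, beside 0.0067 over all 19413 genes tested, with Ttr at 1.62 (SE 1.27, adjusted p = 0.784 by edgeR), Kcne2 at 1.37 (SE 0.892, adjusted p = 0.707) and Clic6 at 0.60 (SE 0.315, adjusted p = 0.578). At 5 of 8, Clic6 had the most N libraries above the control mean, while Ttr had 3 of 8. The background of the comparison was 0% of genes called at an adjusted p under 0.05 and 9.39% at an unadjusted p under 0.05, and 0 of the 10 genes passed either. DESeq2 and limma-voom also called 0 of 10. The 95% interval for Ttr ran from -0.86 to 4.11 on the log2 scale and that for Clic6 from -0.018 to 1.22, so differences of several fold in Ttr were not detectable with this spread between mice. The N median library exceeded the control median for 10 of 10 genes, log2 differences of geometric means ran from 0.25 (Enpp2) to 1.11 (Aqp1), and limma-voom gave a median of 0.56 over the 10. The size of the fitted median depended on single libraries, at 0.29 without N library 6 and 0.65 without N library 5. It was -0.097 among libraries with reads of the enamel matrix gene Ambn at 0.5 CPM or more, and 1.18 among those below. N libraries 5 and 6 and control library 5, the 3 highest for every member, all fell below, so the split itself moves these values. Without both N libraries 5 and 6, an alternative chosen after seeing the data, the fitted median was -0.98. These are the 2 highest libraries for every member and the highest controls stayed in, so a lower value is built into that choice.

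For CN against control the 10 genes had fitted log2 fold changes between -0.43 (Prlr, SE 0.866) and 0.41 (Ttr, SE 1.4), 4 of them above 0. Their median was -0.0046, beside 0.00076 over all genes. Again 0 of 10 genes passed, with a background of 0% at an adjusted and 8.36% at an unadjusted p under 0.05, and DESeq2 and limma-voom called 0 of 10 as well. Group means and typical libraries gave different pictures. Ttr had a mean of 304 ± 154 CPM in CN (SD, n = 5) and 229 ± 333 in control (n = 8), but a geometric mean of 258 and 53.5 CPM, a log2 difference of 2.27. By limma-voom, which works on log values, the median of the 10 genes was 0.62 for this comparison. In the edgeR fit the interval for Ttr was -2.34 to 3.15, and the median of the 10 genes moved to 0.52 without control library 5 and to -0.21 without CN library 5.

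CN against N, which shares its libraries with the comparisons above, gave fitted values below 0 for 10 of 10 genes, from -1.34 (Aqp1, SE 1.03) to -0.51 (Clic6, SE 0.363). The median was -1.08, beside 3.4e-05 over all genes, and the adjusted p-values ran from 0.588 to 0.759 by edgeR. Of the 10 genes 0 passed, against a background of 0% at an adjusted and 11.8% at an unadjusted p under 0.05, and DESeq2 and limma-voom again called 0. Geometric means reversed the order for 5 of the 10: Ttr was at 258 CPM in CN and 109 in N on that scale. The fitted median was -0.3 without N library 6 and -0.7 without N library 5. It was 0.84 without either, a choice that again removes the highest libraries of a single group.

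**Figure D2:**
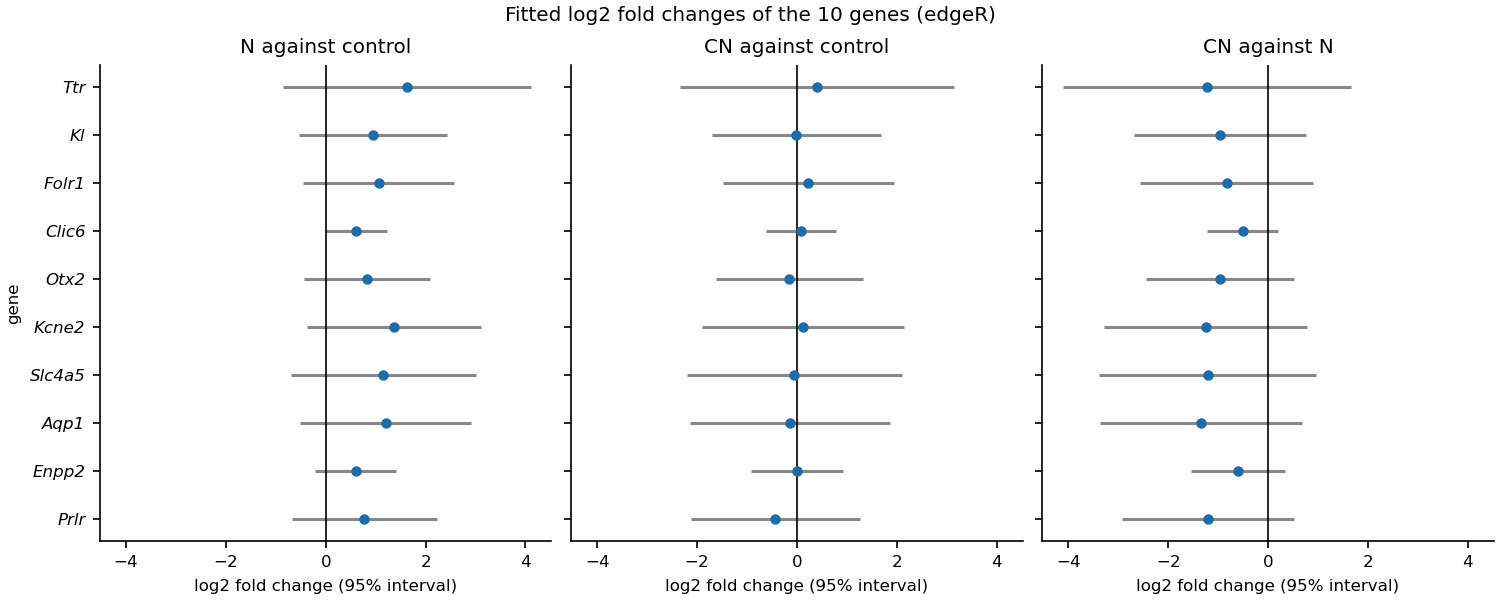
Fitted log2 fold changes of the 10 genes in the 3 comparisons, with 95% intervals from the edgeR fit; the vertical line is no difference. Every interval includes 0; N against control lies to the right for 10 of 10 genes, CN against N to the left for 10 of 10, and CN against control on either side of 0.

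The 10 genes covaried from library to library. Over the 45 pairs, Spearman's rho across the 21 libraries had a median of 0.881, from 0.695 for Clic6 and Enpp2 to 0.945 for Ttr and Kcne2. Pearson's r of log2 CPM had a median of 0.935, from 0.837 for Ttr and Clic6 to 0.985 for Slc4a5 and Aqp1. All 45 pairs passed a permutation test after Benjamini-Hochberg adjustment over the 45, with 0.00062 the highest adjusted p of rho and 1e-05 the smallest p the 100000 resamples can give. With the 2 libraries farthest from the median of the first gene of each pair left out, the median r was 0.903 (lowest 0.749). Kcne2 had the highest median rho with the other members (0.931) and Enpp2 the lowest (0.84). Members share each library's depth and scaling. On plain library totals the median rho between members was 0.882, but these too divide all members of a library by the same number. The part of shared scaling in rho was therefore not tested.

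**Figure D3:**
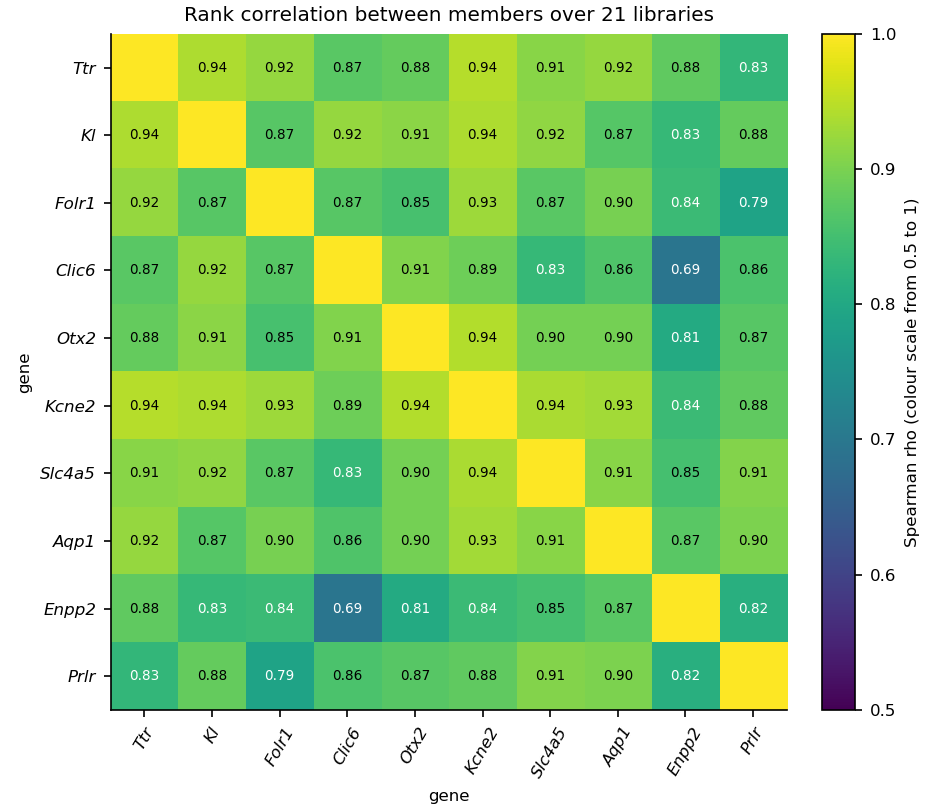
Spearman's rho between each pair of the 10 genes over 21 libraries; colour and printed value are rho, on a scale from 0.5 to 1. All pairs lie between 0.695 (Clic6 and Enpp2) and 0.945 (Ttr and Kcne2).

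Covariation was present within injection groups as well. The median rho of the 45 pairs was 0.833 within the 8 control libraries and 0.833 within the 8 N libraries. Within the 5 CN libraries it was 0.7, and the 9 pairs with Ttr had a median of 0.3 there, from -0.1 with Otx2 to 1.0 with Folr1, a description of 5 points only. Libraries with Ambn at 0.5 CPM or more and those below gave 0.881 and 0.8. Along the ordered Ttr levels the largest gap was 2.89-fold, between 27.8 and 80.1 CPM. Above it the 12 libraries gave a median rho of 0.909 with 45 of 45 pairs above 0, and below it the 9 libraries gave 0.233 with 34 of 45 above 0, a split made after seeing the data. The lower side spans only 4.23 to 27.8 CPM of Ttr, with few reads for several members, so its lower rho follows in part from the split itself.

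How far each gene followed Ttr differed. On the log2 scale, the slope on Ttr was 0.75 (SE 0.062) for Slc4a5, 0.711 (SE 0.0498) for Kcne2, 0.624 (SE 0.0575) for Aqp1 and 0.524 (SE 0.0445) for Folr1. Kl (0.477), Prlr (0.462) and Otx2 (0.434) were intermediate, and Enpp2 (0.232, SE 0.0347) and Clic6 (0.191, SE 0.0289) the flattest. On the linear scale, the level fitted at zero Ttr was 231 CPM for Enpp2 (SE 17.2) and 20.8 for Clic6 (SE 1.67) and 0.517 CPM for Kcne2 (SE 0.358) and 0.591 for Slc4a5 (SE 0.332). For each further 100 CPM of Ttr, Enpp2 was higher by 40.4 CPM (SE 1.96), Kl by 3.04 (SE 0.182), Clic6 by 2.09 (SE 0.19) and Folr1 by 0.649 (SE 0.022). Fitted levels at zero Ttr were also above 0 by more than 3 SE for Kl (6.03, SE 1.6), Folr1 (0.868, SE 0.193), Otx2 (0.996, SE 0.227) and Prlr (1.61 CPM, SE 0.528). The lowest libraries of Enpp2 and Clic6, at 189 and 16.0 CPM, lay below their fitted constants. So did those of Kl (2.97 CPM), Folr1 (0.363), Otx2 (0.357) and Prlr (0.665). Without N libraries 5 and 6 the constants were 225 CPM for Enpp2 and 19.3 for Clic6, and 0.0988 CPM for Slc4a5 (SE 0.206). Kl was then at 4.11 CPM (SE 1.33), Folr1 at 0.605 (SE 0.153) and Otx2 at 0.694 (SE 0.231). Prlr, at 0.877 CPM (SE 0.46), no longer lay above 0 by more than 3 SE.

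**Figure D4:**
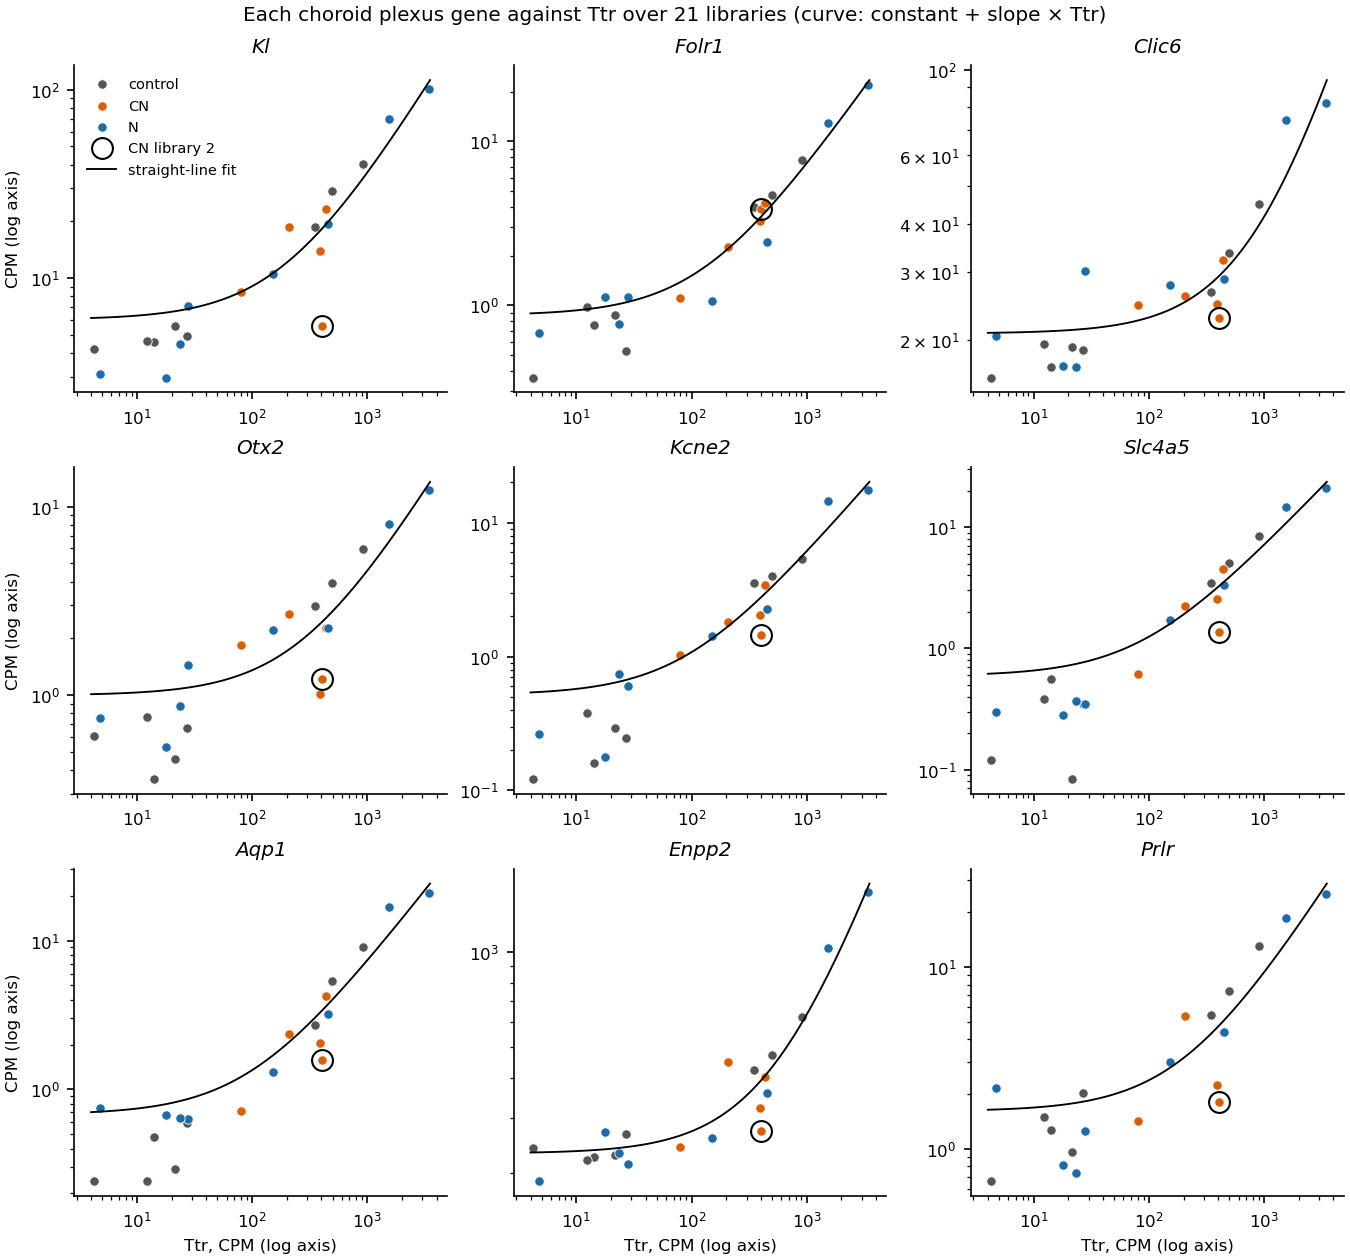
Each of the other 9 genes against Ttr, in CPM on log axes; points are the 21 libraries, coloured by group, the ring marks CN library 2 and the curve is the straight-line fit of CPM on CPM. Towards zero Ttr the fitted curves level off at 231 CPM for Enpp2, 20.8 for Clic6, 0.591 for Slc4a5 and 0.517 for Kcne2. The lowest points of these 4 genes lie below that, at 189, 16.0, 0.0832 and 0.121 CPM.

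Among the libraries with most Ttr, the proportions between genes were not fixed. N library 6 held 2.22 times the Ttr of N library 5, but 1.11 times the Clic6 (2155 and 1936 reads), 1.21 times the Kcne2, 1.24 times the Aqp1 and 1.69 times the Folr1. Per 100 CPM of Ttr, Kl was at 2.94 CPM in N library 6, 4.55 in N library 5, 4.42 in control library 5 and 5.86 in control library 8. Folr1 was at 0.639, 0.84, 0.844 and 0.949 CPM per 100 of Ttr in the same 4 libraries. Among these 4 libraries the ratio was lowest in N library 6 for all 9 genes, while over the 21 libraries that held for Clic6 and Enpp2. In CN library 2 the members were low for its Ttr of 404 CPM. It was the lowest of all libraries relative to the log2 line on Ttr for 6 of 9 genes, by -1.91 for Kl (exon length 9328 bases) and -1.52 for Prlr (15339 bases), and by -0.054 for Folr1 (2297 bases). Length did not order these values strictly: the short Kcne2 (1767 bases) and Aqp1 (2627 bases) were at -1.04 and -1.15, and the longer Enpp2 (5779 bases) at -0.78. Ttr, the gene they were set against, has 1186 exon bases, fewer than any of the 9. CN library 2 is the library with the strongest dependence on transcript length. The part of that dependence in these values, its Ttr level included, was not tested.

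Other genes of the choroid plexus epithelium moved with the 10. Spearman's rho with Ttr was ranked over the other 19412 genes that passed the filter, where the median was 0.001 and 78 genes (0.4%) exceeded 0.7. The other 9 members ranked from 4 (Kcne2) to 38 (Prlr), with Kl at 6, Folr1 at 9, Aqp1 at 10, Slc4a5 at 12, Otx2 at 20, Enpp2 at 23 and Clic6 at 26. Of 39 further genes listed as choroid plexus epithelium, 22 ranked within the first 50 and 26 exceeded a rho of 0.7. The highest rank of all belonged to 1500015O10Rik (0.975). By the rule for named genes, the closest were Prr32 (0.956), the potassium channel gene Kcnj13 (0.951), Sostdc1, a secreted antagonist of BMP and Wnt signals (0.944), Drc7, a part of the motile cilium (0.923), and the keratin Krt18 (0.923). Cldn1 (0.909) and Cldn2 (0.901), claudins of tight junctions, Tmem72 (0.906), the coagulation factor gene F5 (0.905), Mfrp (0.903) and Lbp (0.891) came next, then Abca4 (0.879), Wdr86 (0.875), Cab39l (0.873) and Sema3b (0.865). All 15 were highest in N library 6. Kcnj13, for example, ran from 0.0302 to 10.4 CPM and Sostdc1 from 0.181 to 15.1 CPM. Of the 39 genes, Abcc4 (0.109) and Slc26a11 (-0.517) were the lowest. At the other end of the ranking stood the kinase gene Clk4 (-0.779), which ran from 74.6 to 106 CPM, the histamine receptor gene Hrh2 (-0.703), Shcbp1l (-0.687), Rel (-0.687) and B3galnt2 (-0.683). For N against control the 39 genes had a median log2 fold change of 0.51 and for CN against control -0.0070, with 0 of 39 called in either.

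**Figure D5:**
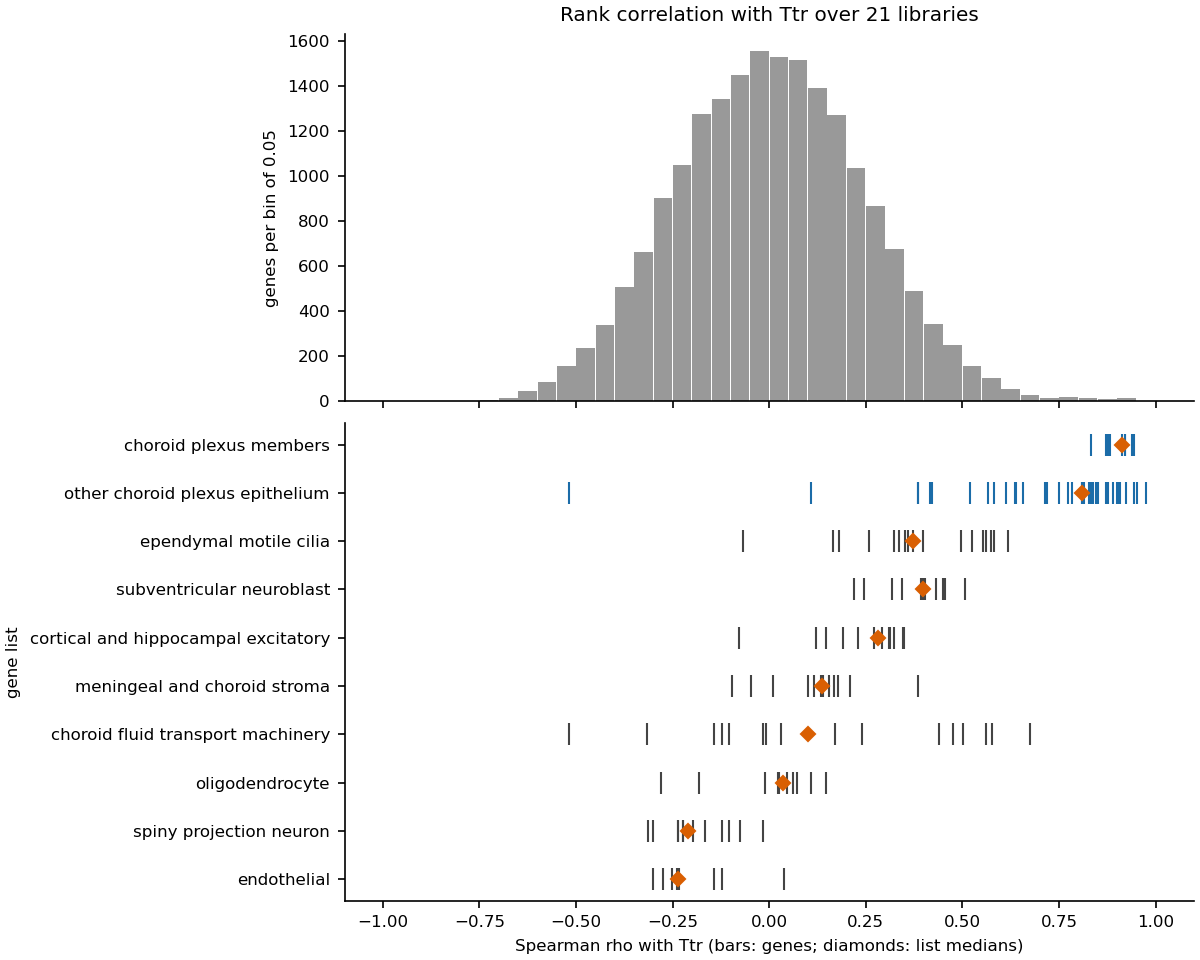
Spearman's rho with Ttr over 21 libraries. The upper panel counts all 19412 other genes in bins of 0.05 and the lower panel shows the genes of 10 lists (bars) with each list's median (diamonds): the other choroid plexus members have a median of 0.912 and other choroid plexus epithelium 0.81, while the remaining lists have medians from -0.236 to 0.399.

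Broadly expressed transport genes did not share this pattern. Of 16 genes of the fluid transport machinery, such as the sodium pump subunit gene Atp1b1 (rho 0.17) and the kinase gene Wnk1 (-0.143), 0 exceeded 0.7 and the median was 0.101. Genes that act with single members were also flat against Ttr. In prolactin and growth hormone signalling only Prlr itself exceeded 0.7, while Jak2 (-0.039), Stat5b (-0.196), Socs2 (-0.178) and Ghr (-0.025) did not. Folate genes besides Folr1 included Mthfd1 (0.423), Slc19a1 (0.471) and Slc46a1 (0.201). Lysophosphatidic acid receptors Lpar1 (0.149) and Lpar6 (-0.416) and the phosphatase gene Plpp3 (0.119) stayed below 0.7, as did the klotho co-receptors Fgfr1 (0.374), Fgfr2 (0.064) and Fgfr3 (-0.053) or the channel gene Trpm7 (-0.038). Thyroxine and retinol genes other than Ttr had Slco1c1 at 0.331, Dio2 at -0.194 and Aldh1a1 at -0.129. In each of these lists 0 genes were called in any of the 3 comparisons.

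Markers of other tissue next to the striatum or within it were set beside these values. Ependymal cells, which line the ventricle, were followed by 17 genes of motile cilia, with a median rho of 0.373 and 0 above 0.7 (Foxj1 0.525, Ak7 0.496, Ccdc153 0.181, Ccdc39 -0.068). Their summed level was 100.1 to 122 CPM in control, 105 to 155 in CN and 83.5 to 209.7 in N, with N library 6 highest. The medians for N and CN against control were 0.38 and 0.30 with 0 of 17 called. For N against control, 4 of 17 had an unadjusted p under 0.05, beside 9.39% of all genes tested. Neuroblast genes of the subventricular zone had a median rho of 0.399. Their sums were 386 to 460.4 CPM in control, 427 to 536 in CN and 417 to 599 in N. For N against control their median was 0.52, with 0 of 12 called. At an unadjusted p under 0.05 stood 8 of 12, beside the same 9.39% of all genes. Dcx was at 0.345, Sox11 at 0.456, Sp9 at 0.245 and Tubb3 at 0.219 in rho with Ttr. Stromal genes of meninges and plexus (median rho 0.137; 129 to 290.2 CPM in control, 117 to 320.3 in CN, 126 to 333 in N) and red cell genes (0.166; 3.42 to 35.1, 1.66 to 24.5 and 4.07 to 35.4 CPM) were less closely ranked with Ttr. Oligodendrocytes, a further source of Enpp2, gave 0.035 (8195 to 11166 CPM in control, 8758 to 12657 in CN, 5842 to 11724 in N). Cortical and hippocampal excitatory genes were at 0.282, endothelial genes at -0.236, with Flt1 at -0.142, Slco1a4 at -0.234, Cldn5 at -0.251 and Ly6c1 at 0.039, and spiny projection neuron genes at -0.21. For N against control the endothelial median was -0.43, with 0 of 8 called and 7 of 8 at an unadjusted p under 0.05 (sums of 202 to 272 CPM in control, 153 to 244 in CN and 154 to 220.2 in N). The spiny neuron median was -0.19, with 0 of 12 called and 7 of 12 at that level (11549.6 to 13337 CPM in control, 10842 to 13561 in CN, 9449 to 12351 in N). That level was reached by 2 of 12 stromal, 0 of 5 red cell, 0 of 10 oligodendrocyte and 0 of 12 cortical and hippocampal genes. The share over all genes tested was 9.39%. None of the ependymal, neuroblast, stromal, red cell, oligodendrocyte, endothelial or spiny neuron markers stood at 0 in all libraries of a group. The part of these cell types in the values of the 10 genes was not tested.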

How the data were processed

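Total RNA was extracted with Trizol and sequenced on an Illumina NovaSeq instrument, per the labels' protocols. The authors deposited raw read counts per Ensembl gene, with a column for each mouse. Per the submitters' processing notes, STAR aligned the reads and featureCounts counted them. The notes give no versions and list a human build, GRCh38, for mouse libraries. The build is thus unsettled, and no coordinates were taken from the table. Symbols were matched for 54409 of 54532 rows.

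All 21 libraries with a stated injection entered a single edgeR quasi-likelihood fit of the 3 groups (edgeR 4.0.16, R 4.3.3; robust dispersion, TMM scaling, filterByExpr), with Benjamini-Hochberg adjustment over 19413 genes and calls at an adjusted p under 0.05. SE is the fold change over the root of F, and intervals are 1.96 SE either side of the fold change. DESeq2 1.42.0 and limma-voom (limma 3.58.1) were alternatives. Correlations used CPM, with 0.5 added before logs, and 100000 permutations (two-sided). Exon lengths are GENCODE M21 and promoter sequences RefSeq GRCm38.p6. The procedure was tested on simulated data. Column names are separate mice by their labels, and p-values measure the spread between these libraries. The closest pair within a group differed by 5.913 times sampling noise, so none was treated as a duplicate. Library totals of 24.9 to 35.6 M counts limit genes with few reads most.

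The 10 genes, the lists and the Ambn class were chosen with earlier results of these data known. Named genes are the members, the 15 genes most and 5 least correlated with Ttr (at 1 CPM or more on average and with no provisional symbol), up to 4 genes per list with the highest mean, and Taf1; 1500015O10Rik, Abcc4 and Slc26a11 were named after their values were seen. Some genes within this rule are not reported here. Alternatives were other size factors, no filter, only the groups compared, each library left out, Ambn class, Ttr as a covariate, and, added after seeing the data, libraries without N 5 and 6 or split at a gap in Ttr. The mouse library without a stated injection entered no comparison, and rat libraries were not analysed here.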

Additional observations from a re-analysis of the deposited data

Results flagged for a closer look

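In the N group, Ttr in library 6 stood at 3431 CPM, far from the next library at 1542 CPM: the gap was 0.551 of the group's range, where 0.526 is the 95% limit for 8 libraries. Of 30 sets of values (10 genes in 3 groups) this was the 1 that passed that limit, and chance passes about 1 in 20. The other 9 genes were also highest in that library, with smaller gaps to N library 5.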

How the results depend on the processing

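In every setting run 0 of the 10 genes were called in any comparison. Counts of all genes called were less stable: for N against control 95 with DESeq2, 209 with only the groups compared and 0 to 197 with a library left out (197, 11 and 32 when CN library 2, CN library 1 or N library 1 was left out), and for CN against N 180 with DESeq2, 8 without the filter and 0 to 70 with a library left out (70 without CN library 2, 23 without N library 1). For CN against control it was 0 to 1 with a library left out. The median log2 fold change of the 10 genes with a library left out was 0.29 to 1.48 for N against control, -0.21 to 0.52 for CN against control and -1.3 to -0.3 for CN against N. Without N libraries 5 and 6 (added after seeing the data) it was -0.98 for N against control and 0.84 for CN against N, shifts that removing the highest libraries of a single group makes by construction. Among libraries with Ambn below 0.5 CPM, where CN has 1 library that is assumed to vary like the others, it was -1.23 for CN against control and -2.71 for CN against N, and at or above it 0.53 for CN against N. Within the same classes the value for N against control was 1.18 and -0.097. N libraries 5 and 6 and control library 5, the highest for every member, were all in the class below 0.5 CPM. Of 309 gene values over settings, 21, 62 and 26 had the opposite sign for N against control, CN against control and CN against N. The median rho between members was 0.935 as Pearson's r on log2 CPM, 0.7 within CN, 0.8 among libraries with Ambn below 0.5 CPM, 0.233 among libraries below the largest gap in Ttr, and 0.862 to 0.91 with a library left out. The 9 other members stayed among the 50 genes most like Ttr in each setting that ranked genes against Ttr. With the mean of the members as reference they did so too, but there their place is built into the choice. The median slope on Ttr, 0.477 on the log scale, was 0.684 as a linear slope scaled to the means and 0.445 to 0.518 with a library left out. The causes of these shifts were not tested. No paired analysis was possible because the replicate numbers follow the order of the records and pair no mice. Reads limit the lowest values: Slc4a5 had 2, Kcne2 4 and Aqp1 8 reads in their lowest libraries.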

Other observations

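A further mouse library, whose injection field names no miRNA, held 25.5 M counts (M, mega) and also contained choroid plexus RNA. Ttr was at 576 CPM there, the fourth highest of 22 libraries, and Enpp2 at 479 CPM. Kl was at 29.9 CPM, Clic6 at 31.5, Prlr at 5.79 and Folr1 at 5.43. Slc4a5 was at 4.84 CPM, Otx2 at 4.05, Aqp1 at 3.37 and Kcne2 at 3.01. All 10 genes ranked between 4 and 7 from the highest in this library.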
